A study of Mus musculus with 5 samples.

Results

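The mRNAs of the translation elongation factors Eef1a1, Eef2, Eef1b2, Eef1g and Eef1d were examined for m6A (N6-methyladenosine). The 5 members were listed by name. Their positions were all called adenosines on the exons of GENCODE M21 (mm10), on the strand of the call. In the METTL3 inhibition dataset, 4 of the 5 genes had covered positions, of 2641 genes that did, and Eef1g had 0 in the files used here. The members held 1563 of the 468161 covered exon positions. A site was a position with more than 25 valid reads in each library of its dataset and an m6A level of 5% or more in at least 1 library. The level is the share of valid reads called m6A. This gave 70 member sites of 37903 in the inhibition dataset and 95 of 26390 in the Mettl5 dataset.

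Elongation factors carry the ribosome through each codon. eEF1A, the product of Eef1a1, brings the aminoacylated tRNA to the ribosome as a GTP complex. eEF1B2, eEF1G and eEF1D form the eEF1B complex, which exchanges GDP for GTP on eEF1A. eEF2 moves the ribosome along the mRNA after each peptide bond. The mRNA of eEF1A is among the most abundant of growing cells. METTL3 methylates adenosines of mRNA within DRACH motifs (A, G or T, then A or G, then the methylated A, then C, then A, C or T), while METTL5 methylates 18S rRNA.

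RNA of mouse embryonic stem cells (mESCs), grown in serum and LIF and maintained with 2i, was sequenced directly in 5 libraries, 1 per condition or clone. In the inhibition dataset, E14 cells received 30 μM STM2457, a METTL3 inhibitor, for 48 h, or 0.025% v/v DMSO. Both libraries carried 2C::3xtbGFP-PEST, Zscan4::mCherry-PEST, a doxycycline-driven APOBEC1-YTH-HA-IRES-tdiRFP that was not induced, and FKBP12 F36V knocked into both Mettl3 alleles at the C-terminus, also not induced. GEO's labels give their genotype as WT. The Mettl5 dataset held untreated WT cells and 2 Mettl5-KO clones from an earlier study, named clone 1 and clone 2 here. The DMSO and STM2457 libraries were sequenced on 1 flow cell, while the authors do not state this for the Mettl5 libraries. With 1 library per condition, each test below compares libraries and not conditions, and intervals cover counting error only.

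Valid calls numbered 71574467 with DMSO, 54051900 with STM2457 and 17897440 to 22025887 in the Mettl5 libraries. Median coverage was 45 to 64 reads per position. Of 10 mESC markers, 8 had 10 or more covered positions in the inhibition dataset and 7 in the Mettl5 dataset, with Fgf4 at 0 positions in the former. All 7 markers of differentiated lineages and all 4 of fibroblasts had 0 positions.

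Members differed widely in depth. The median valid coverage in DMSO was 6915.5 reads for Eef1a1, 1890 for Eef2, 1730 for Eef1b2 and 51 for Eef1d, which placed them 5th, 25th, 27th and 1512th of 2574 genes. Eef1a1 and Eef2 were covered from exon 2 to the last exon, 8 and 14. Eef1d was covered from exon 4 to exon 8 and only in the inhibition dataset. Eef1b2 had medians of 54 and 37 reads in exons 1 and 2, against 1582 to 1901 in exons 3 to 6, so nearly all its information came from the 3′ part. The highest sum of call classes at a position of Eef1a1 was 7729 in DMSO and 7446 in STM2457, near the highest of any gene, 8015 and 7718. Depth of Eef1a1 was therefore not compared between these libraries.

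Reads of near-identical genes could have been split. Alignment of the member transcripts to all GENCODE M21 transcripts found genes with 90% identity or more over 200 nt or more for each member, 18 for Eef1a1, 5 for Eef1g, 3 for Eef2, 3 for Eef1d and 1 for Eef1b2. None of them had a covered position in either dataset. Of the Eef1a1 3′UTR, 35 positions also lie in Gm26377 (chr9:78478528-78478635), an annotated miRNA gene on the same strand, and the reads of both cannot be told apart there.

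The sequences around the sites that carry the results are given from the GENCODE M21 transcripts, 5′ to 3′, as 21 bases with the called adenosine in the middle. Capitals mark the 5 bases centred on it. Sites are named by their distance in nt from the last base of the stop codon, positive in the 3′UTR. The first 9 are the DRACH sites with the highest levels of each member.
Eef1a1 +60: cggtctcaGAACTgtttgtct
Eef1a1 +101: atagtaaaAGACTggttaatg
Eef1a1 +156: aatgttgtGGACCattttttt
Eef2 +178: tgcaggctGGACTggcaggct
Eef2 +57: acaccttgAGACTgtcccaca
Eef2 -10: aacttcctGGACAaactgtag
Eef2 -6: tcctggacAAACTgtaggcag
Eef1b2 -43: gcttttgaGGACTacgtacag
Eef1d -200: ccagctagAGACTtgtgtgcg

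The next 3 lie outside DRACH. They are shown because Eef2 -652, where a G follows the RAC core (A or G, then A, then C), was lower with STM2457, while the other two, without a RAC core, had high levels in all 5 libraries.
Eef2 -652: tatgagtgGGACGttgctgaa
Eef1a1 -419: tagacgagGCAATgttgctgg
Eef2 -526: gctggcttCCAGTgggctact

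STM2457 against DMSO asks which calls depend on METTL3 activity. Of the 70 member sites, 20 were lower with STM2457 and 0 were higher (Fisher's exact test, Benjamini-Hochberg adjusted p below 0.05 over all exon sites). Over all genes, 21% of sites were lower and 0.19% higher. The motif separated the member sites. Of 19 DRACH sites, 17 were lower, against 59.8% of DRACH sites of all genes. Of 51 other sites, 3 were lower, against 2.81%. Depth moved with these shares, so they were also read at 500 or more reads in both libraries. There 15 of 15 member DRACH sites were lower against 100% of all genes, and 3 of 36 other sites against 9.76%. At this depth the members did as the other genes did, and the count by itself is no result about elongation factors.

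**Figure D1:**
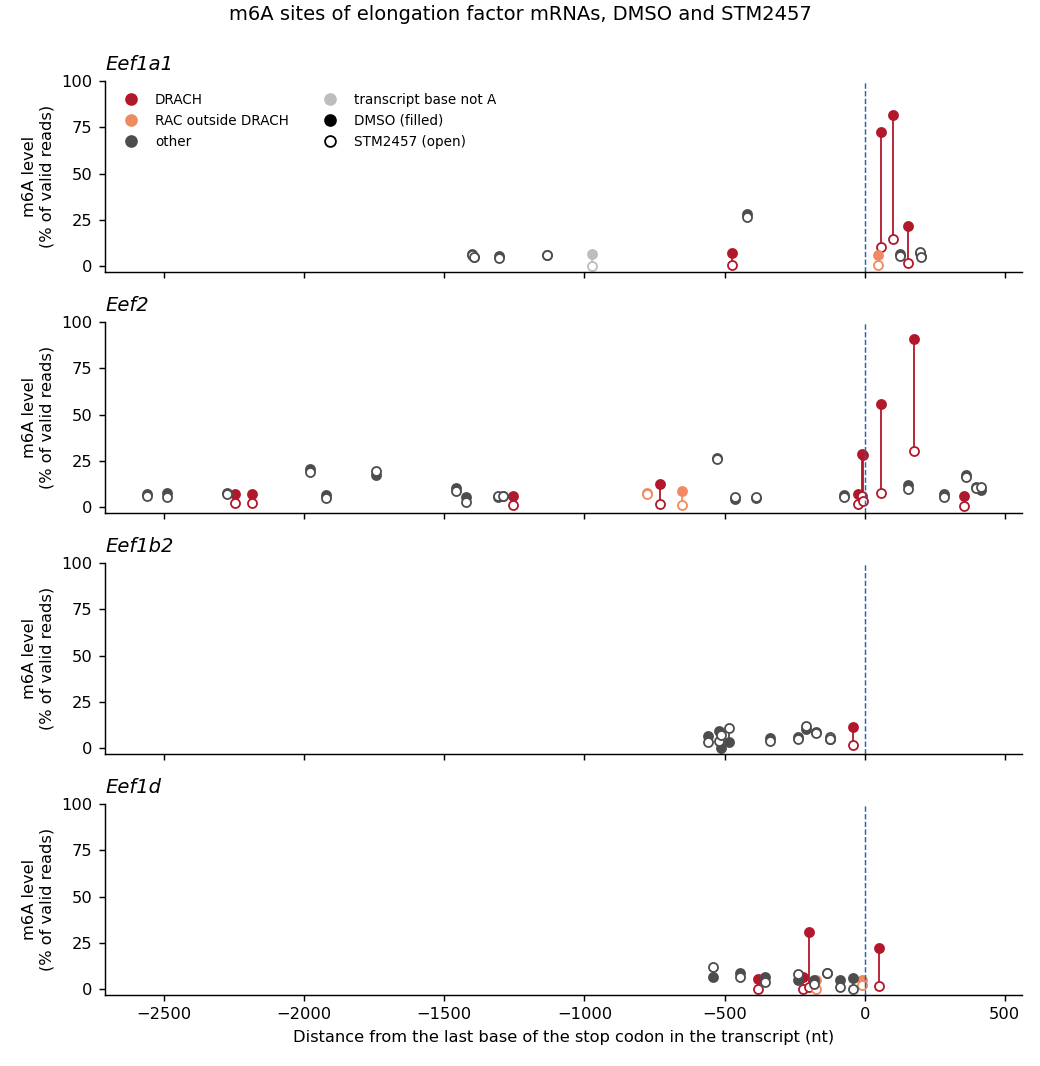
m6A level (% of valid reads) of the 70 member sites in DMSO (filled) and STM2457 (open), by distance from the last base of the stop codon (dashed line, nt), with 1 panel per gene. The highest levels lie within 200 nt after the stop codon of Eef1a1 and Eef2, and the DRACH sites, in red, drop with STM2457 while most grey sites overlap.

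Eef1a1 had 14 sites, of which 4 were in DRACH, and the strongest pair stood in the 3′UTR of its last exon. At +101 (chr9:78478633), the level was 81.6% in DMSO (exact 95% interval 80.7 to 82.4, 7506 reads) and 14.5% in STM2457 (13.7 to 15.3, 7249 reads). It lost 82.2% of its level (81.2 to 83.2). The level at +60 (chr9:78478674) was 72.3% in DMSO (71.3 to 73.3, 7407 reads) and 10.3% in STM2457 (9.61 to 11, 7202 reads), a loss of 85.8% (84.7 to 86.7). Adjusted p was below the smallest number the arithmetic holds at both. The Mettl5 dataset (WT, clone 1, clone 2) had 74.2%, 74% and 74.4% at +101, and 63.1%, 63.4% and 64.5% at +60. STM2457 was the only library of the 5 below 60% at either position, and both positions were picked for their high level.

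The other DRACH sites of Eef1a1 were lower. The level at +156 (chr9:78478578) was 21.8% in DMSO and 1.76% in STM2457, a loss of 91.9% (90.3 to 93.2), with 17.1%, 16.2% and 16.9% in WT and the clones. The site at +156 and the one at +101 lie in the span shared with Gm26377, and the one at +60 does not. In the coding sequence, 1 of 26 DRACH positions reached 5%. That site, in exon 6 at -472, had 7.25% in DMSO and 0.682% in STM2457.

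Eef2 had 31 sites, of which 10 were in DRACH, and all 10 were lower with STM2457. The level at +178 (chr10:81182260) was the highest of any member, 90.9% in DMSO (89.7 to 92.1, 2237 reads). It was 30.4% in STM2457 (28.1 to 32.8, 1526 reads). It lost 66.6% of its level (63.9 to 69), the smallest loss of the 15 deep DRACH member sites. Only 4 of 118 DRACH sites of that depth over all genes kept a higher level in STM2457. WT, clone 1 and clone 2 had 87.6%, 91% and 89.8% there.

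At Eef2 +57 (chr10:81182139), the level was 55.8% in DMSO (53.7 to 57.9, 2244 reads) and 7.64% in STM2457 (6.33 to 9.13, 1453 reads), a loss of 86.3% (83.6 to 88.6). The adjusted p was 7.62e-216 by Fisher's exact test. WT had 50.9%, clone 1 had 55.2% and clone 2 had 58.9%. The 4 strong 3′UTR sites of Eef1a1 and Eef2 ranged from 50.9% to 91% in the 4 libraries without STM2457 and from 7.64% to 30.4% with it. They were picked for their high level, and 100% of DRACH sites with 500 or more reads were lower over all genes.

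The last codons of Eef2 held a pair of DRACH sites whose adenosines are 4 nt apart. At -10 (chr10:81182072), the level was 28.7% in DMSO (26.8 to 30.7, 2067 reads) and 5.98% in STM2457 (4.76 to 7.41, 1304 reads), a loss of 79.2% (73.9 to 83.4). At -6 (chr10:81182076), it was 28% in DMSO (26 to 30.1, 1967 reads) and 3.27% in STM2457 (2.37 to 4.4, 1284 reads), a loss of 88.3% (84.1 to 91.4). Fisher's exact test gave adjusted p of 1.43e-63 and 3.13e-82. WT, clone 1 and clone 2 had 21.6%, 29.3% and 29.5% at -10, and 28.1%, 26.4% and 26.4% at -6. Failed calls were more common at this pair than at the other DRACH sites of Eef2, 9.62% and 13.7% against 2.26% to 4.93%. Whether both are methylated in the same reads is not in counts per position.

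The remaining 6 DRACH sites of Eef2 had 5.92% to 12.8% in DMSO and 0.527% to 2.15% in STM2457. They lay in exons 3, 8, 11 and 14. The highest, in exon 11 at -730, fell from 12.8% to 1.89%. The 2 sites of exon 3, which are the farthest from the 3′ end, lost 72.7% (56.1 to 83.1) and 69.3% (51.5 to 80.6).

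The highest sites of Eef1b2 and Eef1d, subunits of the exchange complex, were lower than those of Eef1a1 and Eef2. They had 11.3% and 30.6% in DMSO, against 81.6% and 90.9%. The median DMSO level of DRACH sites was not lower in Eef1d, 14.3% against 10.1% in Eef2. The only DRACH site of Eef1b2, at -43 in exon 6 (chr1:63179569), had 11.3% in DMSO (9.96 to 12.8, 1978 reads) and 1.79% in STM2457 (1.15 to 2.65, 1341 reads). It lost 84.2% (76.1 to 89.6), with an adjusted p of 1.16e-26 by Fisher's exact test. WT had 8.68%, clone 1 had 7.59% and clone 2 had 12.3%. Eef1b2 -209 (chr1:63179319), a CAAAA site and the second highest of the gene, had 10.2% in DMSO and 11.8% in STM2457, and the test did not separate them (adjusted p = 0.456, Fisher's exact test). That site had 13.2%, 12.6% and 14.8% in WT and the clones, so all 5 libraries lay between 10.2% and 14.8%.

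Eef1d had 14 sites, of which 4 were in DRACH, on 31 to 103 reads. At -200 in exon 7 (chr15:75895893), the level was 30.6% in DMSO (19.6 to 43.7, 62 reads) and 1.25% in STM2457 (0.0316 to 6.77, 80 reads), with an adjusted p of 3.79e-06 by Fisher's exact test. The 3′UTR site at +52 (chr15:75895501), chosen after its values were seen, had 22.2% in DMSO on 81 reads and 1.94% in STM2457 on 103 reads (adjusted p = 0.000115, Fisher's exact test). At the remaining DRACH sites of Eef1d the difference was not detectable at this depth. Of these, -379 had 5.66% in DMSO against 0 of 63 reads in STM2457, where the exact interval reached 5.69%. The site at -221 had 6.45% against 0 of 78 reads, where the exact interval reached 4.62%. The Mettl5 dataset was not analysed for Eef1d, which had 0 covered positions there.

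Over the 19 DRACH sites the median loss was 85.8% of the DMSO level, and 84.2% with the 2 sites at 0 reads set to the limit that 0 allows. The same medians over all genes were 85.6% and 74.7%, on 12022 sites. At 500 or more reads the members had a median loss of 84.2% and all genes 88.8%. Losses of single member sites at that depth ran from 66.6% to 91.9%. The 5% threshold was applied to these same libraries.

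The 3 lowered sites outside DRACH were named after their values were seen. At 2 of them a RAC core is followed by G. Eef2 -652 (chr10:81181015, GGACG) had 8.53% in DMSO and 1.37% in STM2457, a loss of 83.9% (73.7 to 90.2). Eef1a1 +49 (chr9:78478685, GAACG) had 6.29% and 0.899%, a loss of 85.7% (81.5 to 89). Both had few failed calls, 2.82% and 2.61%. The other, Eef2 -1424 (chr10:81179884, GTATT), fell less, from 5.72% to 2.94%, a loss of 48.5% (22.9 to 65.6), with an adjusted p of 0.00548 by Fisher's exact test. It was not called when all exon positions were tested without a level threshold. Eef2 -1424 lies 2 nt after the first base of exon 8. Its failed calls were 15.5% in DMSO and 11.2% in STM2457. The part of either in this fall was not tested. A GGACG site of Eef1d, at -175, had 5% in DMSO on 60 reads and 0 of 84 reads in STM2457, where the exact interval reached 4.3%.

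Most member sites outside DRACH were not called different with STM2457. On few reads this does not show that the level was kept. Eef1d -40 had 5.88% in DMSO on 68 reads and 0 of 87 reads in STM2457, and was not called. Eef1a1 -419 (chr9:78479337, GCAAT, exon 6) had 28% in DMSO (26.8 to 29.3, 5390 reads) and 26.8% in STM2457 (25.5 to 28, 5094 reads). The difference was -1.28 percentage points (-2.98 to 0.432), and the adjusted p was 0.38 by Fisher's exact test. WT, clone 1 and clone 2 had 17.9%, 16.1% and 14.6%, all below both libraries of the inhibition dataset. Eef2 -526 (chr10:81181141, CCAGT, exon 11) had 26.4% in DMSO and 26.2% in STM2457, a difference of -0.194 points (-3.79 to 3.49). That site had 34%, 42.3% and 37.9% in WT and the clones, all above the inhibition dataset. These positions ranked with the DRACH pair at the end of the Eef2 coding sequence in level, yet the intervals leave room for a fall of at most 2.98 and 3.79 points.

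The 5 member sites of 5% or more in DMSO with the smallest loss were all outside DRACH and all had a higher level in STM2457, none past the test. Eef1d -541 (chr15:75896725) had 6.45% in DMSO and 12.1% in STM2457 on 31 and 33 reads, and its interval of the difference, -10.4 to 21.6 points, gave no information. Eef2 +414 (chr10:81182496), 2 nt before the annotated end of the transcript, had 9.23% and 11%. WT had 13.6%, clone 1 had 17.6% and clone 2 had 6.41% on 78 reads. Eef1b2 -209 is given above. Eef2 -1742 (chr10:81179389, ATAGC) had 17.6% and 19.4%, against 3.45%, 5.57% and 3.73% in WT and the clones. Eef2 -1310 (chr10:81179998, CCACG) had 5.74% and 6.28%, against 12.7%, 9.71% and 10.8%.

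Failed calls moved with the motif. Their median share in DMSO was 3% at the 19 DRACH sites and 24.1% at the 45 sites with no RAC core at all. Over all genes it was 3.23% and 18.2%. At 500 or more reads, the 30 member sites without a RAC core that had 5% or more in DMSO lost a median of 7.62%, and those of all genes 6.74%. The part of failed calls in these levels was not tested. At 1 member site, Eef1a1 -974, the transcript sequence has a C in the called place, where 31 reads in DMSO carried a valid call.

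Below the 5% threshold, the depth of the members let small levels be compared. Without a level threshold, 16 of 102 DRACH positions of members under 5% were lower with STM2457, against 0.593% over all genes. All 16 had 500 or more reads in both libraries, and at that depth the counts were 16 of 86 against 15.8%. The levels were small. Eef1a1 -1099 went from 2.55% to 0.363%, and Eef2 -547 from 3.94% to 0.541%. Outside DRACH, 10 of 1386 member positions under 5% were lower, against 0.0127%, and 2 were higher, against 0.00104%. All 12 had 500 or more reads in both libraries, and at that depth the counts were 10 and 2 of 1177, against 0.416% and 0.0438% over all genes. The pair that was higher stood at Eef1a1 +96 and +93, where the level rose from 1.55% to 3.43% and from 1.17% to 2.06%. They are 5 and 8 nt from the DRACH site at +101. Position +98, 3 nt from it, fell from 0.854% to 0.252%. These positions were chosen after their values were seen.

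DRACH positions of members reached 5% in DMSO unevenly along the transcripts. In DMSO, 19 of 121 did, or 15.7%, against 31% of 38760 over all genes. Depth differs between these sets. At 500 or more reads in both libraries, 15 member DRACH positions reached 5% and 86 did not, against 118 and 684 over all genes. The gap was thus not seen at matched depth. The shares that follow were not matched for depth. In the 3′UTR it was 7 of 22, in the coding part of the last exon 4 of 10, and in the coding part of other exons 8 of 88. Over all genes these shares were 40.1%, 37.5% and 10.4%. Of the member positions within 100 nt of an exon junction, 7 of 92 reached 5%, and of those farther away 12 of 29. Over all genes it was 9.68% and 41.9%. Eef1a1 had 0 of 25 near a junction and 4 of 12 away from any. Eef2 had 3 of 45 and 7 of 14. The 4 DRACH sites of Eef1d were all within 100 nt of a junction, as were all its 16 covered DRACH positions. These are counts of positions that share reads, and no test was made.

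Summed over all DRACH positions of a gene, m6A calls were 5.71% of valid calls in DMSO and 1.05% in STM2457 for Eef1a1. For Eef2 they were 5.51% and 1.52%, for Eef1b2 2.34% and 0.361%, and for Eef1d 5.46% and 0.632%. All genes together had 7.28% and 1.9%. At all other covered positions the sums were 0.792% and 0.71% for Eef1a1 and 0.944% and 0.873% for Eef2. They were 0.845% and 0.812% for Eef1b2 and 1.04% and 0.667% for Eef1d. These positions include 10 of Eef1a1, 5 of Eef2 and 1 of Eef1b2 where the transcript has a base other than A. All genes together had 0.928% and 0.807% there. The fall was larger in DRACH than outside it for each of the 4 genes.

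Mettl5-KO against WT asks whether any of these calls depend on METTL5. Of the 95 member sites, 0 changed in both clones in the same direction, against 0.0152% over all genes. Clone 1 alone and clone 2 alone also gave 0 member calls, against 0.0227% and 0.0493%. At an unadjusted p under 0.05 (Fisher's exact test, two-sided), 7 of 95 sites differed in clone 1, against 2.86% over all genes, and 15 in clone 2, against 3.2%. In both clones and in the same direction 4 differed, 3 of them lower, against 0.542%. The clones themselves differed at 0 member sites after adjustment, against 0.0152%, and at 7 at an unadjusted p under 0.05, against 2.55%. Member sites were deeper than most. At 500 or more reads in all 3 libraries, the unadjusted counts were 1 of 33 in clone 1, against 8.26% of 218 sites, 7 in clone 2, against 15.1%, 1 in both, against 3.67%, and 4 between the clones, against 9.63%. Of the 95 sites, 42 were lower than WT in both clones, 21 were higher in both and 32 were split, or 44.2%, 22.1% and 33.7%. Over all genes these shares were 32.1%, 30.6% and 37.3%. At 500 or more reads the members had 13, 9 and 11 of 33 sites, against 37.6%, 33% and 29.4% of 218 sites over all genes. Both comparisons share the WT library.

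**Figure D2:**
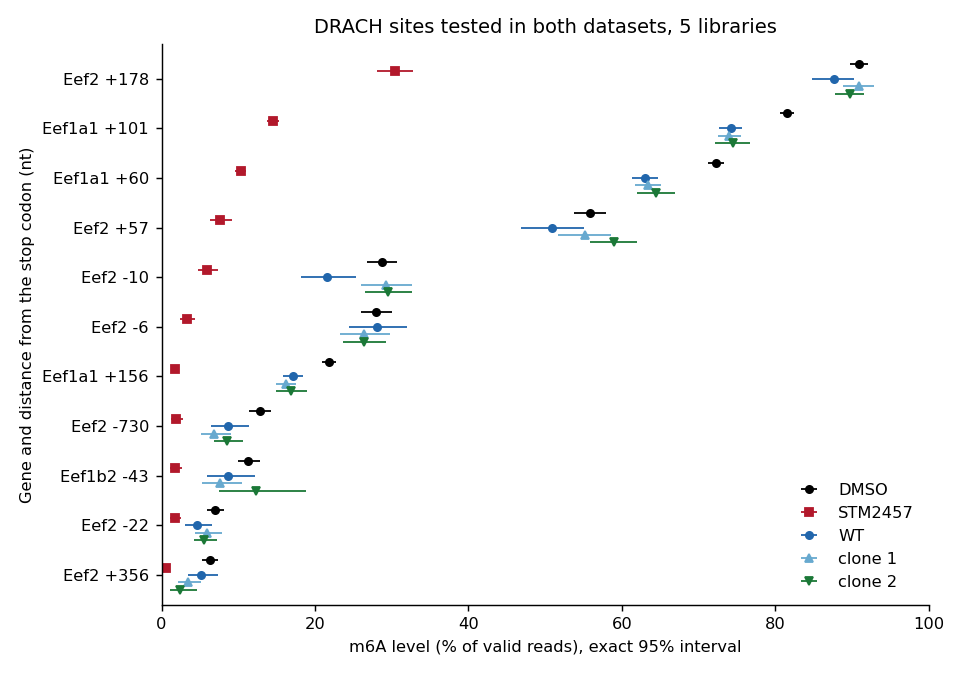
m6A level with exact 95% intervals (% of valid reads) at the 11 DRACH sites tested in both datasets, in DMSO, STM2457, WT and the 2 Mettl5-KO clones. STM2457 (red) is the lowest library at each of the 11, and WT and the clones overlap at most of them.

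The strong sites bound the size of a possible change. At Eef1a1 +101 the difference from WT was -0.19 percentage points in clone 1 (-2.3 to 1.92) and 0.223 in clone 2 (-2.5 to 2.87). At Eef1a1 +60 it was 0.368 (-1.97 to 2.7) and 1.43 (-1.54 to 4.36). At Eef2 +178 it was 3.31 (0.0663 to 6.71) and 2.13 (-1.03 to 5.51). At Eef2 +57 it was 4.24 (-1.02 to 9.48) and 8 (2.98 to 13). The levels of both Eef2 sites were above WT in both clones, and none of the 8 adjusted p-values (Fisher's exact test) was below 1.

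Of the 11 DRACH sites of this dataset, Eef2 -10 had the lowest unadjusted p in both clones. WT had 21.6% (18.2 to 25.3, 533 reads). Clone 1 had 29.3% (26 to 32.7, 735 reads) and clone 2 had 29.5% (26.5 to 32.6, 905 reads). The differences of 7.68 and 7.93 points had an adjusted p of 1 and 0.786 by Fisher's exact test, and DMSO had 28.7%. The smallest adjusted p of any member site was 0.566, at Eef1a1 -419 in clone 2, with 17.9% in WT and 14.6% in clone 2. It did not pass.

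Read depth along the transcripts set clone 2 apart. The median valid coverage of the last 150 nt with covered positions was divided by that from 450 to 600 nt upstream. Over 526 transcripts WT had a median ratio of 1.03, clone 1 of 1 and clone 2 of 0.814. For Eef1a1 the ratios were 0.936, 0.816 and 0.254, for Eef2 0.928, 0.837 and 0.329, and for Eef1b2 1.33, 1.14 and 0.227. In clone 2, Eef1a1 went from 4326 reads in exon 6 to 1372.5 in exon 8. Eef1b2 went from 603.5 in exon 3 to 113.5 in exon 4, while WT had 252 and 314. At the strong sites of Eef1a1 the level in clone 2 was near that of WT on fewer reads. Eef1a1 +60 and +101 had 1484 and 1466 reads in clone 2 against 3210 and 3271 in WT, at the levels given above. Other sites near the ends had other levels in clone 2, none past the test, such as Eef2 +414 with 6.41% against 13.6% in WT.

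**Figure D3:**
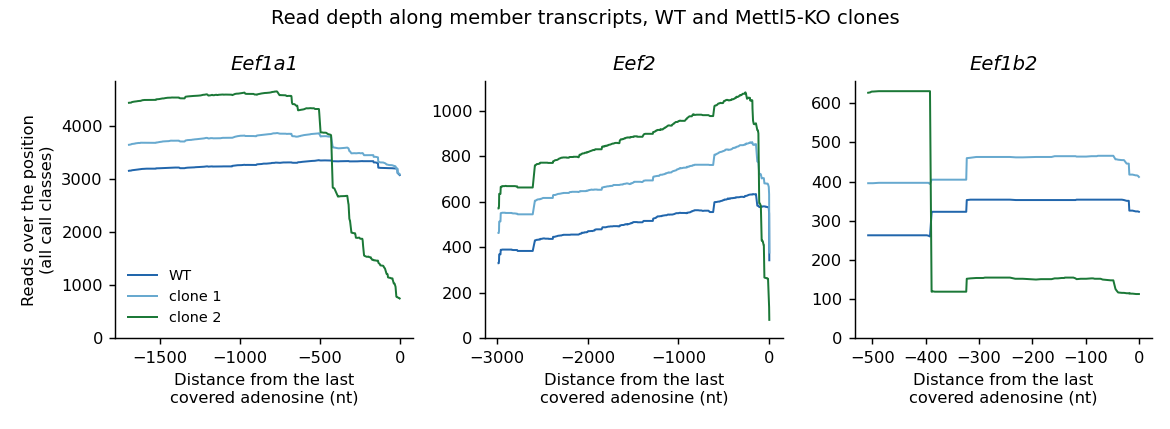
Reads over each covered adenosine (all call classes) of Eef1a1, Eef2 and Eef1b2 by distance from the last covered adenosine (nt), in WT and the 2 Mettl5-KO clones. Clone 2 (green) has the most reads upstream in each panel and the fewest at the 3′ end.

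The sums per gene weight each position by its reads. For WT, clone 1 and clone 2 in this order, summed DRACH calls of Eef1a1 were 5.07%, 4.73% and 2.58% of valid calls. The mean over DRACH positions, each with equal weight, was 4.91%, 4.86% and 4.9%. For Eef2 the sums were 5.13%, 5.34% and 5.54% and the means 4.37%, 4.54% and 4.76%. For Eef1b2 the sums were 1.99%, 1.67% and 1.55% and the means 1.94%, 1.64% and 2.32%. The sum of Eef1a1 was thus low in clone 2 while its equal-weight mean was not, and both measures of Eef2 were highest in clone 2.

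DMSO and WT were set side by side without a test, since cell line and dataset differ and batch or run cannot be told apart from them. At the 15 DRACH positions of 5% or more in either, WT was a median of 4.02 points lower, with differences (WT minus DMSO) from -9.26 to 0.129 points. Of these, 10 were sites in both and 5 only in DMSO. At the 74 positions outside DRACH, 24 were sites in both, 9 only in DMSO and 41 only in WT. WT was a median of 3.78 points higher there, with a range from -14.1 to 14.4. Over all genes the medians were -4.31 points in DRACH and 3.97 outside it, so the members moved as the rest did. Eef2 -1742, at 17.6% in DMSO and 3.45% in WT, and Eef2 +284 (CCATG), at 6.9% and 21.3%, stood at the ends. Failed calls in WT were 22.7% and 42.3% at these positions.

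**Figure D4:**
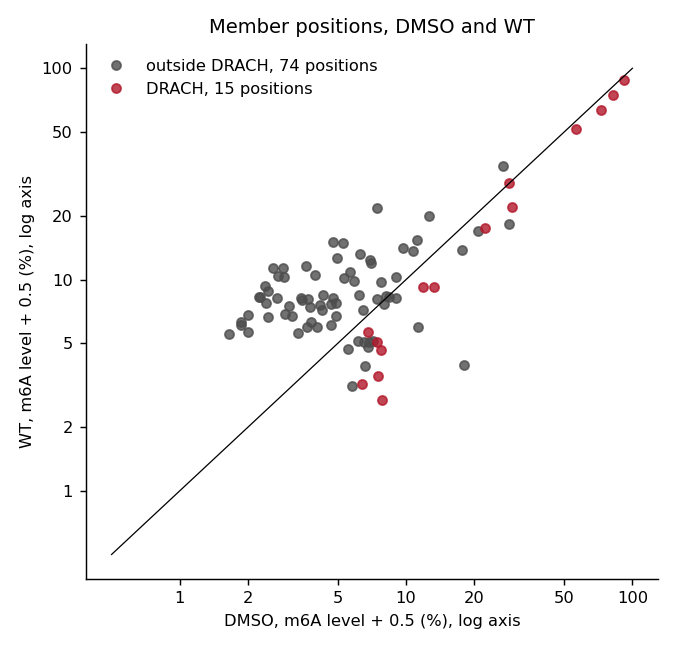
m6A level (%) with 0.5 added of member positions in DMSO and WT, on log axes, for 15 DRACH and 74 other positions of 5% or more in either library. The line marks equal levels, with 14 of the 15 DRACH points below it and most grey points above it.

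Other genes of translation elongation were counted from a list of 25. Of these, 11 had covered positions in the inhibition dataset, with 147 sites, of which 36 were in DRACH. With STM2457, 24 of the 36 DRACH sites were lower, against 59.8% over all genes, and 3 of the other 111, against 2.81%. Of all 147, 1 was higher, against 0.19%. In the Mettl5 dataset 3 of the 25 were covered, and 0 of 119 sites changed in both clones, against 0.0152% over all genes. Several held sites of 25% or more in DMSO, on fewer reads than Eef1a1 and Eef2.

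Among the genes that modify the elongation factors, Dph3, which acts in making the diphthamide of eEF2, had 90.7%, 86.5% and 38.3% at 3 sites of its 3′UTR in DMSO, and 16.1%, 10.1% and 4.43% in STM2457. Eef1akmt1 and Eef1akmt4, methyltransferases of eEF1A lysines, had sites of up to 53.2% and 61.7%, with 0 of 38 reads and 7.69% left. At the former, 3 calls of 38 reads would be 7.89%. Dohh, which completes the hypusine of eIF5A, had 49.4% at its highest site and 1.92% left. Gfm1 and Tsfm, factors of mitochondrial elongation, had 72.7% and 67.1%, with 2.44% and 7.79% left. At 2 sites outside DRACH where a G follows the RAC core, Tsfm (GGACG) fell from 62.3% to 10.7% and Dohh (AGACG) from 36% to 6.14%. Eef1e1, a protein of the multisynthetase complex, had 38.2% and 9.28%. Eefsec, which brings selenocysteine tRNA, had 31.2% in DMSO, on 32 reads. With the inhibitor it had 0 of 26 reads, where 3 calls would be 11.5%. Vars, the valyl-tRNA synthetase that binds the eEF1 complex, had 25.8% and 25% at 2 sites outside DRACH in DMSO. They had 23.5% and 29% in STM2457, which the test did not separate.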

How the data were processed

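Direct RNA sequencing counts of 5 mESC libraries were used. The authors split the pooled reads by adapter (WarpDemuX), used dorado for base calls, modification calls not limited to DRACH, and alignment to mm10, and summarised calls with modkit pileup, keeping positions with enough coverage in every sample. The deposited values are read counts per position and strand (valid, m6A, unmodified, other modification, failed and different base), not normalised, with a percent column that gives m6A over valid calls. The authors' notes also name bedtools. Per the file values, the positions are the same in all libraries of a dataset. Failed calls are outside the percent, and the value of the confidence filter is not given in the sources used here.

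From these counts, levels were computed as m6A calls over valid calls, with exact Clopper-Pearson 95% intervals, Newcombe intervals for differences and log-ratio intervals for relative losses. Positions were matched to GENCODE M21 exons by strand, and 99.8% of the positions with a transcript sequence had an A there. Libraries were compared per position with Fisher's exact test, two-sided, Benjamini-Hochberg adjusted over all exon sites of all genes with scipy 1.17.1 and pandas 2.3.3 under Python 3.11.15, tested on simulated data. Copies were sought with BLAST 2.17.0. DRACH motifs were read on the transcript strand and held 40189 of 468161 exon positions, and 121 of 1563 member positions. For a level of 0 reads, the limit given is 3 calls of the coverage, which is below the upper end of the exact interval.

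Sites given in full were those of 25% or more in any library, for a member without one its 2 highest in DMSO, sites called in both clones (none), and the 5 of 5% or more in DMSO with the smallest relative loss. Other sites were named after their values were seen. The members and lists were chosen with earlier results of these data known. Alternatives were other level and coverage thresholds, RefSeq-linked exons, other denominators, DRACH alone, thinning to equal coverage, no level threshold, sites chosen in the other dataset, other call rules and each clone left out.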

Additional observations from a re-analysis of the deposited data

How the results depend on the processing

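Member sites numbered 70 in the inhibition dataset and 95 in the Mettl5 dataset. They numbered 23 and 32 at a level of 10%, 9 and 7 at 25%, and 19 and 11 in DRACH alone. Sites lower with STM2457 numbered 20 of 70, against 21% over all genes. At a level of 10% they were 11 of 23, against 53.3%, and at 25% they were 7 of 9, against 91.5%. Among sites of 5% or more in WT they were 13 of 75, against 18.6%. Without a level threshold they were 45 of 1558, against 1.38%, and 2 were higher. The first 3 alternatives test other or fewer sites, and the last tests 1558 positions. Under the other 8 alternatives the count was 17 to 20 with 0 higher, against 17.4% to 67.9% lower over all genes. The median loss over all 64 member sites of 5% or more in DMSO was 28.4%, against 72.7% over all genes. At 500 or more reads in both libraries it was 17.3% against 20.6%, so the gap was smaller at matched depth. The member median was 72.9% at a level of 10%, against 79.3% over all genes, and 82.2% at 25%, against 80.2%. In DRACH alone it was 85.8% against 85.6%, and among sites of 5% or more in WT 6.88% against 39.2%. With failed calls in the denominator it was 66.7% on 43 sites, against 76.9%. At a coverage of 100 or more it was 17.3% against 66.7%. Pooled calls gave 63% for members and 62.8% for all genes. The count changed in both clones was 0 under the 13 alternatives run for it, with each clone alone giving 0 to 0, and the count between clones was 0 under the 4 run for it (a level of 10%, a coverage of 100, failed calls in the denominator, no level threshold). All 130 values of the 15 sites given in full kept direction, where called, and their side of the threshold. No paired analysis was possible because each group compared has 1 library and only Mettl5-KO has 2. Depth limited Eef1d and exons 1 and 2 of Eef1b2.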

Other observations

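The deposited counts also hold calls of a class of other adenosine modifications, which the caller offers as inosine and 2′-O-methyladenosine without separating them in the rows used here. In DMSO, over the 1546 member adenosines, its median share of valid calls was 0.127%, and 1 position passed 25%. That position is in exon 9 of Eef2 (chr10:81180211, ACATT), where the other class took 56.1% of 617 valid reads in DMSO (exact 95% interval 52.1 to 60) and 59.3% of 396 in STM2457 (54.3 to 64.2). It took 62.1% in WT, 59.4% in clone 1 and 63.6% in clone 2, so all 5 libraries had more than 55%. Of all 471848 positions in DMSO, 26 had 50% or more. The m6A share there was 0.486% in DMSO. Failed calls were 67.2% of all calls at the position in DMSO and 52.5% in WT, and their part in the value was not tested.
Eef2 exon 9: atgtggaaACATTgtggggct

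In WT 9 of the member positions with an A in the transcript had 10% or more of this class, 3 in Eef1a1 and 6 in Eef2, and in DMSO 4 had. Of these in Eef1a1, the highest in both was CTATT in exon 3 (chr9:78480348), with 10.6% in DMSO, 10.2% in STM2457 and 15.2% to 17% in WT and the clones. Of the member positions with another base in the transcript, 4 of Eef1a1 had 10% or more in DMSO or WT, on 31 to 52 reads. The highest (chr9:78479893, exon 4, TTTCT) had 55.8% of 52 valid reads in DMSO and 60.5% of 43 in WT.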
